A study of Mus musculus with 12 samples.

Results

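The proteasome is the barrel-shaped protease that degrades most proteins marked with ubiquitin in the cytoplasm and nucleus. Its genes carry symbols of the form Psm followed by a letter from a to g and a number, and the protein-coding genes with such symbols were taken as the members: 51 of the 25091 genes and repeats left after transcript estimates were summed by gene. Of these, 49 encode subunits, activators, an inhibitor or assembly factors. The other 2, Psmc3ip, a meiotic recombination factor, and Psme3ip1, a partner of an activator, share only the letters.

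By the labels, the libraries came from mouse zygotes of B6D2F1 females aged 8 to 10 weeks, whereas the study's methods give 6 to 8 weeks. The labels also have the zygotes collected 18 to 20 h after hCG and injected with RNA. The study's scheme of its oocyte-stage knockdown instead has the siRNA injected into immature (GV) oocytes that were then matured and fertilised in vitro, so the stage of injection for the Lsm1 KD and Ctrl libraries is uncertain. There were 6 groups of 2 libraries. RNA-seq of total RNA covered zygotes given Lsm1 siRNA (Lsm1 KD) and zygotes given a scrambled siRNA (Ctrl). RNA immunoprecipitation on anti-FLAG M2 gel covered zygotes given Lsm1_3XFlag mRNA (FLAG) and control zygotes (Ctrl), each as pull-down (IP) and input. The labels and the study give these controls as injected with Lsm1 mRNA, named without the tag. The titles of these latter control libraries name IgG, whereas their antibody label names the FLAG gel. LSM1 is a subunit of the cytoplasmic LSM1-7 ring, which binds the 3′ end of deadenylated mRNAs ahead of decapping. By the study's methods each RNA-seq library pooled a few embryos. Each RIP-seq lysate came from many more, with a small part of it kept as input. The libraries of a group were biologically independent.

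In the 20S core, alpha subunits form the outer rings and beta subunits the inner rings, where Psmb5, Psmb6 and Psmb7 carry the cutting sites. The 19S particle caps the core: its base holds the ATPases Psmc1 to Psmc6, which unfold substrates, and its lid removes ubiquitin. PA28 and PA200 activators open the core without the 19S particle. In the egg and zygote the proteasome is known for removing stored maternal proteins around fertilization.

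The siRNA is shown because the knockdown comparison rests on it, with the seed of its antisense strand (bases 2 to 8) in capitals and T written for U. Its letters came from the study's oligo list.
Lsm1_siRNA as listed: gatcaatttgctaacttag
antisense strand: cTAAGTTAgcaaattgatc
The listed strand matched the coding sequence of Lsm1 across the junction of exon 2 and exon 3 on the plus strand of chromosome 8 (GRCm38), with 10 bases at 25792216 to 25792225 and 9 bases at 25793677 to 25793685. The whole site was also in a transcript with no annotated coding sequence, Gm15209 on chromosome X, for which the files hold no value. The complement of the seed, TAACTTA, was in the longest annotated 3′ UTR of 11.4% of the 10446 genes tested that have one (median log2 fold change in the knockdown −0.06, against −0.01 without it). It was in 1 of 41 such members, Psma2, but not in the 1 Psma2 transcript that was quantified (946 bases), whose 3′ UTR is shorter. None of the 3 members called in the knockdown, described below, held these letters in that UTR.

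Lsm1 itself was at 63.6 and 71.0 normalised CPM (counts scaled to library size) in the Lsm1 KD libraries and at 143 and 147 in Ctrl. It fell by 1.10 on the log2 scale (SE 0.216, adjusted p = 0.0118, edgeR's quasi-likelihood test). In the inputs Lsm1 was at 9741 and 14980 normalised CPM in FLAG against 16.15 and 16.4 in Ctrl. The control inputs thus gave no sign of an added Lsm1 mRNA, although their label, too, names one. The FLAG and Ctrl arms therefore differed in the amount of Lsm1 RNA as well as, by label, in the tag. Totals of estimated counts ran from 4636492 to 31586450. The FLAG IP replicates differed from each other. Lsm1 was at 5993 normalised CPM in replicate 1 and 139300 in replicate 2, against 10840 and 16750 in FLAG input (fit of all 8 RIP-seq libraries). Repeats took 12.7% of the counts of FLAG IP replicate 1, against 2.63% in FLAG IP replicate 2, 1.96% and 1.08% in Ctrl IP and no more than 0.331% in any input. The summed level of 6 immune cell markers reached 28.4 TPM (a transcript level per length and per library) in FLAG IP replicate 1, against at most 5.63 in any other group. The 8 oocyte markers were present in each group, at summed levels from 1981 TPM in FLAG IP to 27170 TPM in Lsm1 KD, where most of the sum was from Oosp1. A change in share in a bulk library cannot tell fewer cells of a type from less RNA per cell.

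The zygote held RNA for nearly the whole constitutive proteasome but at very uneven levels, and had almost none for its immune forms. Levels are given as TPM, which is per length, so that genes can be set side by side; these orders are descriptions with no test. Psma7, an alpha subunit, was the highest member at 1198 and 1080 TPM in the 2 Ctrl libraries. Psma2, the next, stood at 618 and 535 TPM, and both together made up 29.5% of the summed level of the 51 members. Psma4 followed among the alpha subunits at 323 and 225 TPM and Psma1 at 222 and 103, and Psma5 was far lower at 7.72 and 8.51 TPM. Psma8, the alpha subunit of the testis-specific proteasome, was at 0 and 1.61 TPM, from 8 counts in Ctrl replicate 2.

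Among the 7 constitutive beta subunits the span was from Psmb3, at 298 and 255 TPM, to Psmb5, which carries the chymotrypsin-like site, at 7.31 and 2.64 TPM. The other catalytic subunits were Psmb6 at 158 ± 15.3 TPM (mean ± SD, n = 2) and Psmb7 at 14.1 ± 4.54 TPM. Psmb8, Psmb9 and Psmb10, which replace the catalytic subunits in the immunoproteasome, had 0 counts in all 4 RNA-seq libraries. A count of 0 allows up to 0.14 CPM over the Ctrl group and 0.191 CPM over the Lsm1 KD group (3 counts over a group, counting error only). Psme1, a PA28 subunit of the same immune setting, was also at 0 in all 4.

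In the 19S particle the ATPases ran from Psmc6, at 126 and 115 TPM, down to Psmc3, at 23.8 and 9.20 TPM. Psmd1, a scaffold of the base, stood at 351 and 368 TPM, and Psmd2, the other scaffold, at 101 and 129 TPM. In the lid, Psmd3 was highest at 258 and 359 TPM. The lid subunit Psmd13 was nearly absent, with 1.02 and 0.22 TPM from 9 counts and 1 count, while the other 7 lid genes had group means of 21.1 TPM or more. The base chaperones ran from Psmd9, at 167 and 153 TPM, to Psmd10, at 29.7 and 18.8 TPM.

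A second near-absent gene was the core chaperone Psmg2, at 2.69 and 0 TPM in Ctrl, whereas its partner Psmg1 stood at 89.5 and 84.1 TPM. Both Psmd13 and Psmg2 were low in the inputs too, at 1.10 and 1.69 TPM for Psmd13 and 0.0434 and 0.198 TPM for Psmg2 in Ctrl input. The activators on hand were Psme4 (PA200), at 182 and 237 TPM in Ctrl, and Psme3 (PA28 gamma), at 204 and 164 TPM. Psme2 was at 4.36 and 0 TPM, and Psme2 and Psme2b are near-identical copies whose reads may be split between them. The inhibitor Psmf1 (PI31) was at 59.7 and 38.9 TPM.

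**Figure D1:**
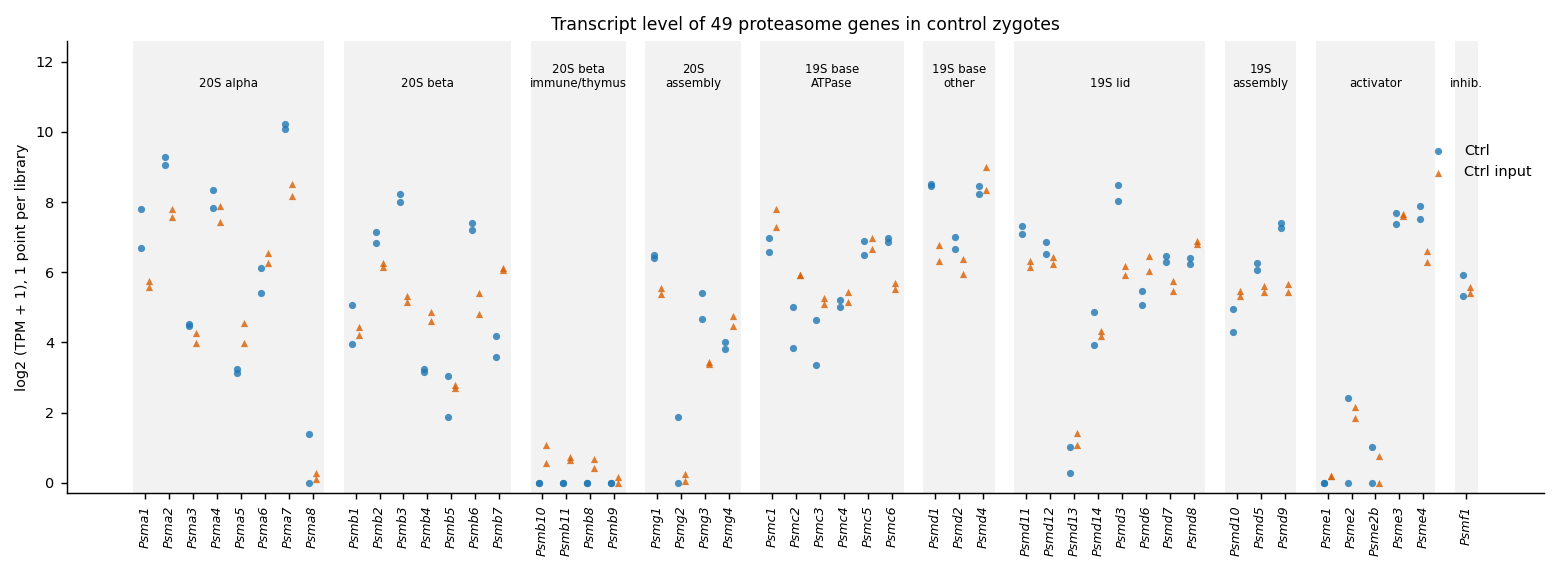
Level of each of 49 proteasome genes as log2 (TPM + 1), grouped by role, with 1 point per library for the Ctrl RNA-seq (circles) and the Ctrl input (triangles). Psma7 tops the Ctrl libraries, Psmb8, Psmb9, Psmb10 and Psme1 lie at 0 there, and Psmd13 and Psmg2 lie near 0 in both.

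RNA-seq and inputs were made with different library kits, and the order of the members was kept only in part between them (Spearman's rho = 0.83 and Pearson's r = 0.917 on log2 (TPM + 1), across 51 genes, as a description). Psmb3 was 6th of 51 in Ctrl and 31st in Ctrl input, at 36.8 ± 3.3 TPM. Psmb7 moved the other way, from rank 36 to rank 18, at 66.8 ± 1.66 TPM in Ctrl input. The top member in Ctrl input was Psmd4, the ubiquitin receptor of the base, at 323 and 515 TPM. Psmb3 and Psmb6 exceeded Psmb7 in Ctrl, and Psmb7 exceeded both in Ctrl input. The kit, the injected RNA, the number of embryos and possibly the stage of injection differ between these libraries and cannot be told apart.

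The knockdown comparison asks which RNAs change when LSM1 is reduced. The proteasome genes did not move as a block: the activator Psme3 rose, the activator Psme4 and the base chaperone Psmd5 fell, and no other member, whether of the core, the base or the lid, passed the test. Of 42 members with enough counts to test, 1 was higher (background: 6.45% of 11335 genes and repeats) and 2 were lower (background 4.56%), so the share called in either direction, 7.14%, lay under the 11.0% of all features. The members' median log2 fold change was 0.09 against 0.01 over all features. Marker lists differed between these groups as well: the summed level of 8 cumulus markers was 138 to 162 TPM in Lsm1 KD and 248 to 256 in Ctrl, with 4 of the 8 at 0 in both and nearly all of the sum from Serpine2. That of 6 sperm markers was 27.0 to 38.4 against 9.56 to 10.8, all of it from Prm2, and that of 6 two-cell genes 48.4 to 63.1 against 153 to 223. Most of the two-cell sum was from Tcstv1, at 44.0 and 26.9 TPM in Lsm1 KD against 185 and 136 in Ctrl. Zscan4c and Usp17la of that list had log2 fold changes above 0 (0.53 and 1.39). The summed level of the 8 oocyte markers was 26290 to 27170 TPM in Lsm1 KD and 21490 to 26590 in Ctrl, with Oosp1 the largest part. Of these markers Ooep (log2 fold change 1.73, edgeR's adjusted p = 0.00119) and Npm2 (1.19, 0.0058) were higher. Gdf9 was lower (−1.08, 0.0182), and the others were not called. The part of these marker lists in the results below was not tested.

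Psme3 (chromosome 11, 101316213 to 101323537, GRCm38.p6) encodes the nuclear activator PA28 gamma, which serves degradation without ubiquitin. Its CPM were 324 and 340 in Lsm1 KD against 215 and 181 in Ctrl. Both knockdown libraries lay above both controls, as they did for 29.3% of the 11335 features tested. The log2 fold change was 0.75 (SE 0.195, edgeR's adjusted p = 0.0364). The call was lost without either Lsm1 KD replicate (adjusted p = 0.0608 without replicate 1 and 0.148 without replicate 2), without Ctrl replicate 2 (0.177) and with limma on log2 (TPM + 1) (0.149).

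Psme4 (chromosome 11, 30771775 to 30881150) encodes PA200, known in the mouse testis for the turnover of acetylated histones. It was at 373 and 296 CPM in Lsm1 KD and at 493 and 672 in Ctrl. The groups did not overlap, and 28.6% of all features tested lay wholly lower in the same way. Psme4 fell by 0.80 on the log2 scale (SE 0.218, edgeR's adjusted p = 0.0417). The adjusted p was 0.21 without Lsm1 KD replicate 2 and 0.17 without Ctrl replicate 2. Among the activators the order of the mean levels of the 2 expressed genes differed between these groups. On the TPM scale Psme4 stood at 209 ± 39.2 and Psme3 at 184 ± 28 in Ctrl, against 99.1 ± 19.8 and 252 ± 0.968 in Lsm1 KD. The ranges of both genes overlapped in Ctrl and were apart in Lsm1 KD. In Ctrl input, made with another kit, Psme3 was the higher one too, at 197 ± 6.13 against 86.6 ± 13 for Psme4.

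Psmd5 (chromosome 2, 34852087 to 34870965) encodes a chaperone that helps to assemble the base and is not part of the finished proteasome. Its CPM were 32.9 and 22.1 in Lsm1 KD against 60.9 and 55.9 in Ctrl. It fell by 1.10 on the log2 scale (SE 0.292, edgeR's adjusted p = 0.0382), with adjusted p = 0.208 without Lsm1 KD replicate 2, 0.0728 without Ctrl replicate 1 and 0.0531 without Ctrl replicate 2. All Psmd5 counts of the 4 libraries went to the same 1 of its 2 RefSeq transcripts. The other base chaperones did not pass: Psmd9 was at −0.41 (adjusted p = 0.214) and Psmd10 at 0.72 (0.261).

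**Figure D2:**
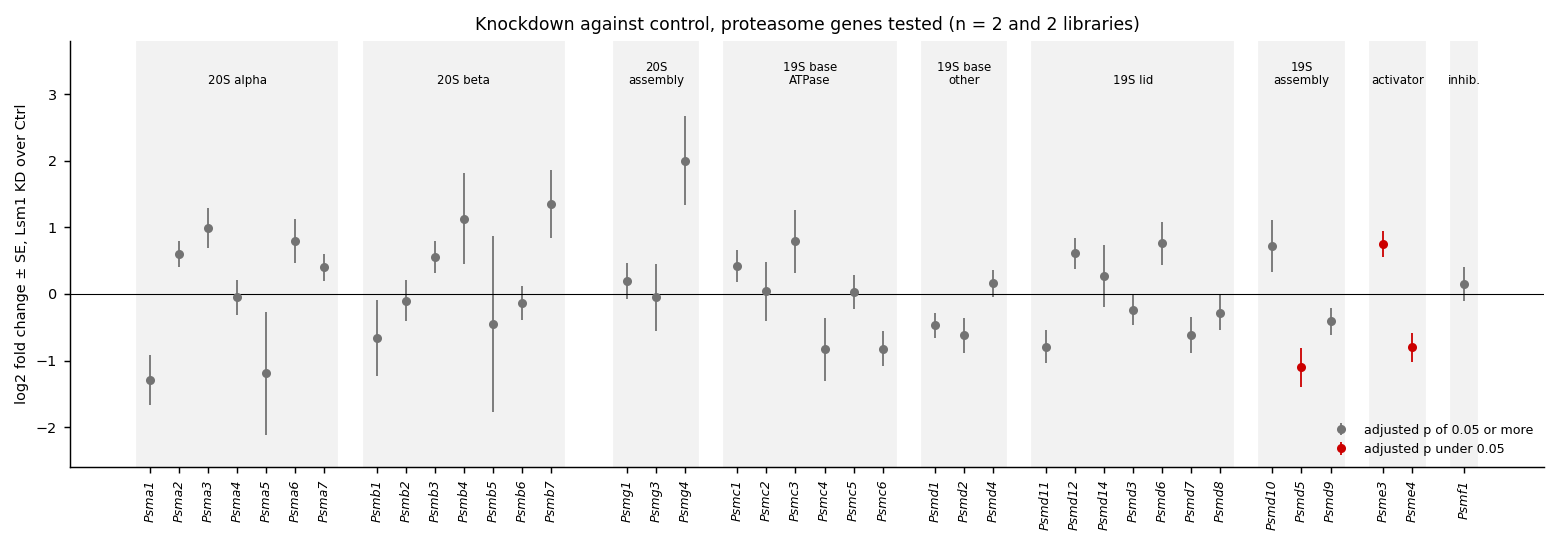
Log2 fold change (Lsm1 KD over Ctrl) with its standard error for the proteasome genes tested, grouped by role, without Psmb11, whose Ctrl libraries were at 0. The 3 genes at an adjusted p under 0.05 are Psme3 above 0 and Psme4 and Psmd5 below 0.

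The 7 alpha genes tested spread from −1.29 to 0.99 with none called, and their extremes sat close to the threshold. Psma1 was at 38.9 and 24.3 CPM in Lsm1 KD and at 103 and 49.99 in Ctrl, a log2 fold change of −1.29 (SE 0.37, adjusted p = 0.0501). It passed with DESeq2 (adjusted p = 0.00772), with no filter on counts (0.000257) and with the length trend taken out (0.0281). It also passed with same-numbered libraries paired (0.045), a pairing not shown for these libraries. It did not pass with RLE factors (0.0514) or limma on log2 (TPM + 1) (0.0541). The log2 fold change ran from −1.73 without Ctrl replicate 2 to −0.68 without Ctrl replicate 1. Psma3 lay on the other side, at 45.6 and 37.7 CPM against 20.1 and 21.9 (0.99, SE 0.293, adjusted p = 0.0558). Psma2 was at 0.60 (adjusted p = 0.0715) and Psma7 at 0.40 (0.241).

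The 7 constitutive beta genes had a median of −0.10 and none passed. Psmb7 had the highest value, 1.35, from 11.8 and 13.2 CPM in Lsm1 KD against 3.71 and 6.20 in Ctrl (adjusted p = 0.116). Psmb5 could hardly be measured, with 10 and 2 counts against 32 and 6. Psmb11, the catalytic subunit of the thymus proteasome, had 7 and 14 counts in Lsm1 KD and 0 in both Ctrl libraries, at least 9.5-fold higher by share of counts against a floor of 3 counts over the Ctrl group. It did not pass (edgeR's adjusted p = 0.059), and it rested on 21 counts in all. Psmb11 entered the fit only through the Lsm1 KD libraries, where it is higher, so these values are no independent sign of a difference.

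Among the 19S genes the ATPases centred on 0.03, the base scaffolds and receptor on −0.47 and the 7 lid genes tested on −0.24, all without a call. Closest to the threshold were the lid gene Psmd11 (50.1 and 67.4 CPM in Lsm1 KD against 107 and 96.4 in Ctrl, −0.79, adjusted p = 0.0653) and the ATPase Psmc6 (48.95 and 35.0 CPM against 75.1 and 72.0, −0.82, adjusted p = 0.0732). The core chaperone Psmg4 was at 2.0 (adjusted p = 0.0811) from low levels of 6.01 and 10.4 CPM against 1.82 and 2.34. Psmc3ip was at 0.23 (adjusted p = 0.858) and Psme3ip1 at 0.42 (0.286). The remaining 9 members, Psmd13, Psma8, Psmg2, Psmb8, Psmb9, Psmb10, Psme1, Psme2 and Psme2b, had too few counts to be tested.

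Genes that work beside the proteasome came from a list of 27, of which 26 were tested, 4 were higher and 2 lower, beside 6.45% and 4.56% of all features. Rad23b, a shuttle that brings ubiquitinated substrates to the proteasome, had the smallest adjusted p among them, at 194 and 214 CPM in Lsm1 KD against 83.3 and 51.5 in Ctrl (log2 fold change 1.59, edgeR's adjusted p = 0.0057). It passed in each of the 11 alternatives run for it. Pomp, the chaperone that matures the core, rose from 14.8 and 8.81 CPM in Ctrl to 36.1 and 34.4 in Lsm1 KD (1.56, adjusted p = 0.0227). Sem1, the smallest lid subunit, which the symbol rule does not catch, rose from 11.3 and 4.41 to 22.9 and 38.2 CPM (1.94, adjusted p = 0.0304).

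Both Pomp and Sem1 lost the call when the trend of fold change with transcript length was taken out (adjusted p = 0.161 and 0.255). Nploc4, a cofactor of the unfoldase Vcp, also rose (45.8 and 42.1 CPM in Lsm1 KD against 23.6 and 18.0 in Ctrl, 1.07, adjusted p = 0.044). The genes that fell were Ecpas and Nfe2l2. Ecpas, which clamps the 19S particle to the core, was at 472 and 349 CPM in Lsm1 KD against 681 and 740 in Ctrl (−0.79, adjusted p = 0.0354).

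Nfe2l2, a stress transcription factor with proteasome genes among its known targets, was at 22.3 and 23.2 CPM in Lsm1 KD against 52.9 and 40.6 in Ctrl (−1.04, adjusted p = 0.0443). Its relative Nfe2l1, which restores proteasome genes after inhibition, was at 155 and 183 CPM against 112 and 113 (0.59, adjusted p = 0.0963). A form of their DNA element, TGACNNNGC on either strand, was in the promoter of 6 of 43 members (14%) and of 12.5% of 27025 genes (RefSeq, GRCm38.p6, 250 bases before to 50 after 1 start of each gene). Of the 3 members called, Psme4 alone held it, with its reverse complement in capitals here.
Psme4: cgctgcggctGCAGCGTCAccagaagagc
Psma1 and Psma3 did not hold it either. A match is a run of letters, not a bound site. Of the 6 pathway genes called, Rad23b alone passed with each library left out in turn. The other 5 were lost without Lsm1 KD replicate 2 (adjusted p from 0.0521 for Pomp to 0.218 for Ecpas), and all of these but Nfe2l2 also without Ctrl replicate 2 (0.0624 for Ecpas to 0.196 for Nploc4). Nfe2l2 and Nploc4 were lost without Lsm1 KD replicate 1 (0.104 and 0.12), and Nfe2l2 without Ctrl replicate 1 (0.2).

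**Figure D3:**
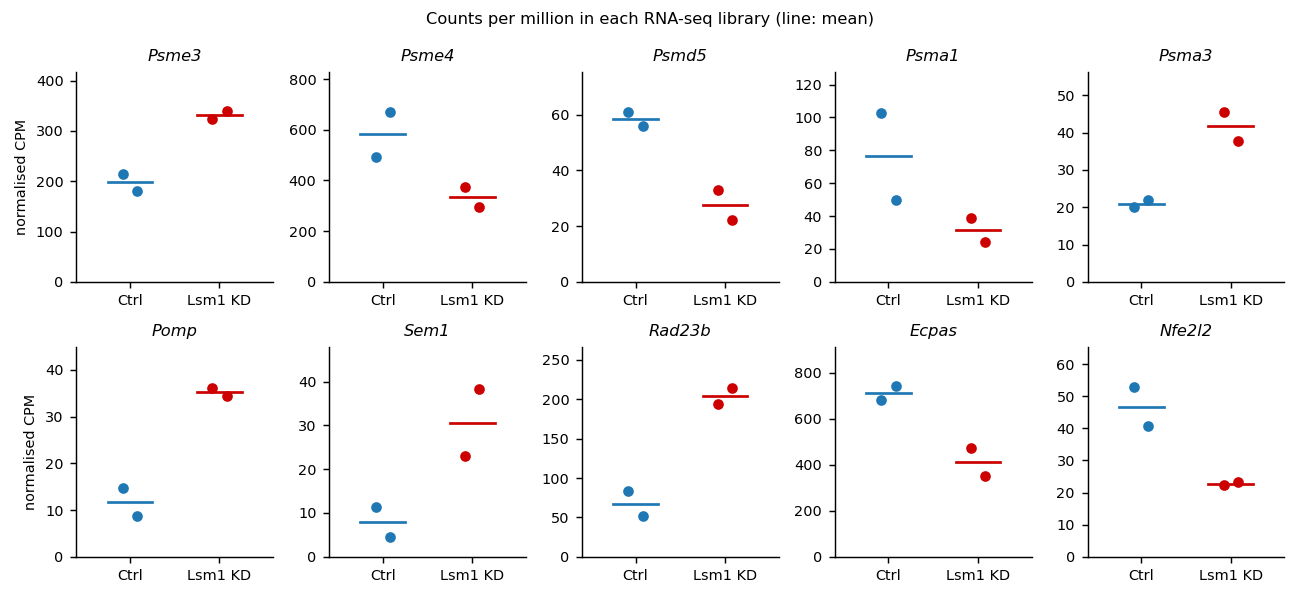
Normalised CPM of 10 genes in each RNA-seq library, as points with the mean of the 2 libraries as a line, for Ctrl and Lsm1 KD, each panel on its own axis from 0. In each panel the Lsm1 KD and Ctrl points do not overlap, but such separation is common with 2 libraries a group. Of all features tested, 29.3% lay wholly higher and 28.6% wholly lower in Lsm1 KD. Psma1 and Psma3 did not pass the test.

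The inputs of the RIP-seq compare the proteasome RNAs of lysates with tagged Lsm1 mRNA and of control lysates, which also held far less Lsm1 RNA. No member was called among the 47 tested (background: 0.00685% of 14592 higher and 0.00% lower), none had an unadjusted p under 0.05, and with DESeq2 the count was also 0. The log2 fold changes of FLAG input over Ctrl input were small, from −0.62 to 0.25. Of the 47 members 8 lay above 0, against 49.2% of all features, with a median of −0.11 against −0.00. Both FLAG inputs lay below both Ctrl inputs for 19 members and 16.8% of all features, and above them for 1 member and 16.7%. Among features of at least 10 CPM, 60.8% lay below 0 (median −0.04), as did 34 of 38 members (median −0.11). This lean of the members was not tested. Psme3 was at 0.09 (SE 0.12), Psme4 at 0.12 (SE 0.114) and Psmd5 at −0.05 (SE 0.133). Without FLAG input replicate 2 the fit called 6 members lower, beside 6.81% of all features.

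The pull-down comparisons ask which RNAs were recovered with tagged LSM1. Relative to its own input, the FLAG pull-down held 9 members at a lower level and 2 at a higher level among 50 tested. The background was 5.48% of 18972 genes and repeats lower and 21.0% higher. The members' median log2 fold change was −0.74, against 0.49 over all features. The genes that fell came from the core, the 19S base and lid, a base chaperone and the inhibitor.

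Much of this gap between members and background went with abundance. Among the 8227 features with a mean of at least 10 CPM over the 8 libraries, 12.1% were called lower, 79.6% lay below 0 and the median was −0.70. The 39 members in that class held all 9 lower calls, 37 of them lay below 0 and their median was −0.84. The 10745 features under 10 CPM had a median of 2.62 and 31.9% were called higher.

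Psmf1, the inhibitor of the core, had the lowest value among the members: its CPM were 24.2 and 59.0 in FLAG IP against 119 and 112 in FLAG input (−1.48, SE 0.443, edgeR's adjusted p = 0.0335), and 98.1 and 93.2 in Ctrl IP against 130 and 125 in Ctrl input. Psmc4, an ATPase, had the smallest adjusted p of the lower genes, at 13.4 and 19.6 CPM in FLAG IP against 45.7 and 34.9 in FLAG input (−1.29, SE 0.32, adjusted p = 0.0183). The ATPase Psmc2 was at 23.7 and 40.1 CPM against 77.9 and 70.6 (−1.22, adjusted p = 0.0309). For each of these genes both FLAG IP libraries lay below both FLAG inputs, as they did for 30.2% of the 18972 features tested. FLAG IP replicate 1 was the lower one.

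The third ATPase called, Psmc5, was at 42.3 and 51.4 CPM in FLAG IP against 90.7 and 100 in FLAG input (−1.03, adjusted p = 0.0483, and 0.0723 with each pull-down paired to the same-numbered input). The lid genes called were Psmd11, at 35.7 and 39.3 CPM against 85.9 and 93.3 (−1.26, adjusted p = 0.0234), and Psmd8, at 46.1 and 64.4 against 129 and 116 (−1.15, adjusted p = 0.0447, and 0.0617 when paired). Psmd10, the base chaperone also called gankyrin, was at 8.03 and 25.5 CPM against 39.9 and 42.2 (−1.30, adjusted p = 0.0487). No FLAG IP value of these genes reached a FLAG input value, a separation found for 30.2% of all features. With the pairing Psmb6, Psmd2, Psmd3 and Psmd6 were called lower in addition, at adjusted p from 0.0117 to 0.0491.

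In the core, Psma4 was at 35.4 and 79.4 CPM in FLAG IP against 141 and 149 in FLAG input (−1.34, adjusted p = 0.0476). Psma6 was at 19.4 and 30.5 CPM against 54.7 and 49.9 (−1.07, adjusted p = 0.0379), while in the control arm it was at 63.0 and 51.4 in Ctrl IP and 58.0 and 58.4 in Ctrl input. No constitutive beta gene was called, and their median was −0.58.

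The genes with higher FLAG ratios were both nearly absent from the inputs. Psmb11 was at 64.1 and 9.25 CPM in FLAG IP against 1.62 and 2.89 in FLAG input (4.02, SE 0.75, adjusted p = 0.00654), and at 7.54 and 5.45 in Ctrl IP against 2.20 and 2.09 in Ctrl input. Its FLAG IP libraries differed widely, and the log2 fold change was 2.0 without FLAG IP replicate 1. Psme1 was at 9.17 and 3.93 CPM in FLAG IP against 0.255 and 0.488 in FLAG input (4.12, SE 1.26, adjusted p = 0.0353). With 6 and 12 counts in FLAG input and 3 and 2 in Ctrl input, it had too few counts to be tested in the inputs and entered this fit only through the pull-downs, so its call is no independent sign of a difference. It was also at 5.997 CPM in 1 of the Ctrl IP libraries, with 0.222 in the other, and its call was lost without FLAG IP replicate 1 (adjusted p = 0.0812). Immune markers as a sum and repeats were raised in FLAG IP replicate 1, as given above, but so were other genes near 0 in the inputs. The cumulus marker Tnfaip6 was at 4.55 TPM there against 0 and 0.0297 in FLAG input, and Inhba at 2.68 against 0.0949 and 0.105. The immune marker Laptm5, at 2.87 TPM, lay between its FLAG input values, and the abundant cumulus marker Serpine2 was lower. Features under 10 CPM had a median of 2.62 in this comparison. The part of any of these in the values of Psmb11 and Psme1 was not tested.

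The members changed by the knockdown were not called here. Psme3 was at 80.0 and 287 CPM in FLAG IP against 459 and 411 in FLAG input (−1.25, SE 0.625, adjusted p = 0.132), and its replicates lay far apart. Psme4 showed the same gap between replicates, at 118 and 486 CPM against 471 and 534 (−0.74, adjusted p = 0.373). Psmd5 was at 46.3 and 60.7 CPM against 73.2 and 63.8 (−0.36, adjusted p = 0.388).

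**Figure D4:**
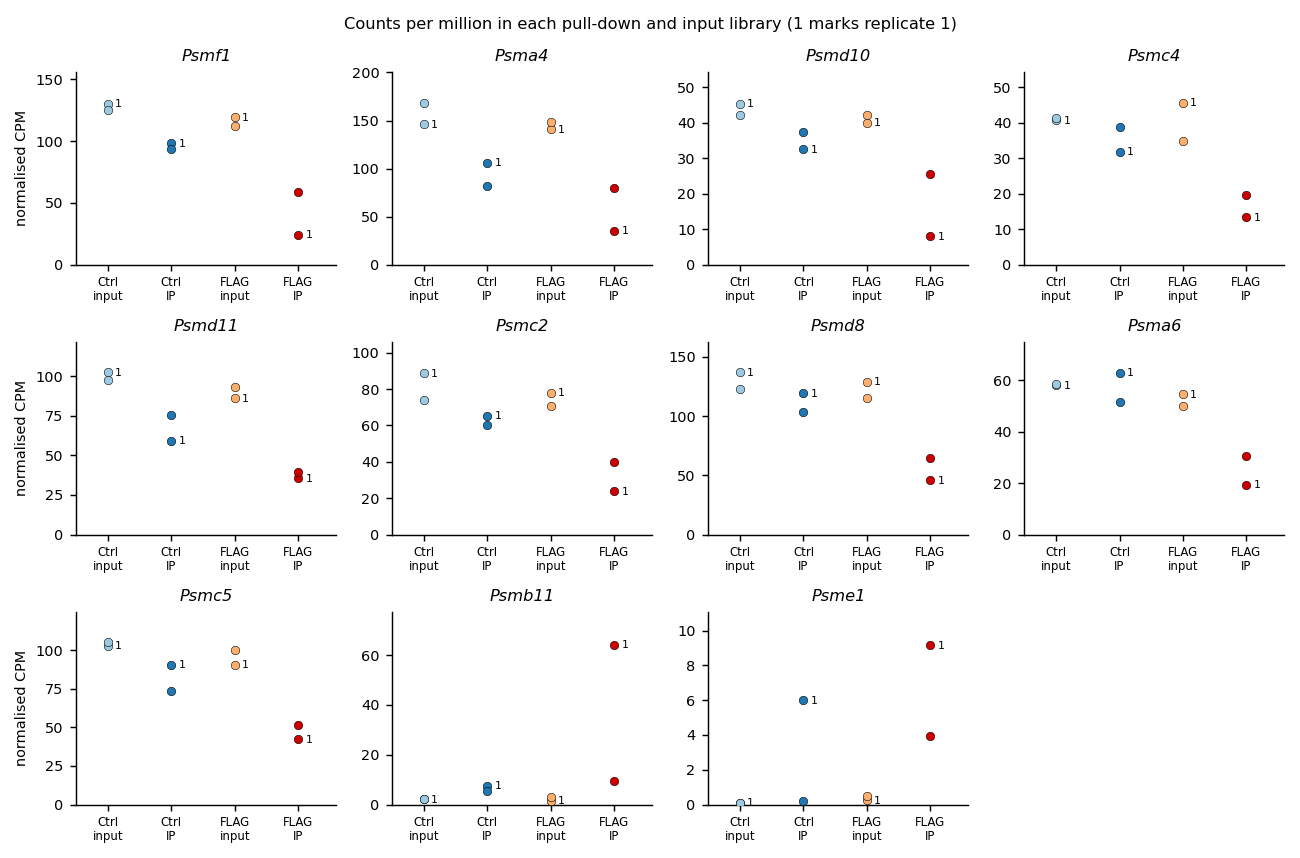
Normalised CPM of the 11 members called in FLAG IP over FLAG input, in each of the 8 RIP-seq libraries, each panel on its own axis from 0, with a 1 beside replicate 1. For the 9 lower genes both FLAG IP points lie below all other points. Of all features tested, 30.2% had both FLAG IP points below both FLAG input points. Psmb11 and Psme1 are highest in FLAG IP replicate 1.

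Leaving out FLAG IP replicate 1 gave 14 members lower and 1 higher, beside 9.48% and 10.5% of all features. Leaving out FLAG IP replicate 2 gave 30 lower and 7 higher, beside 28.5% and 35.9%, and without either FLAG input replicate the count of lower members was 0 (0.024% and 0.442% of all features). Without any 1 of the 4 control libraries, which share the fit, it was 2.

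The control pull-down, which should hold no tagged protein, called no member at all over its input (background: 2.12% of features higher and 0.00527% lower), with 4 members above 0 at an unadjusted p under 0.05 and 0 below. These were Psmb9, Psmb11, Psme1 and Psmg2, and all but Psmb11 entered the fit only through the pull-downs. DESeq2 called 1 higher, and with each pull-down paired to its input Psmb11 and Psme1 were called higher (adjusted p = 0.0157 and 0.0293). The members' median was −0.22 against 0.12 over all features, and among features of at least 10 CPM −0.27 against −0.21. Without FLAG IP replicate 1 in the shared fit, 8 members were called lower and 2 higher in this comparison, and without FLAG IP replicate 2, 6 lower and 2 higher.

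The difference between the FLAG and the control ratio was tested as an interaction. It called no member and no feature at all (background 0.00% in each direction); at an unadjusted p under 0.05, 1 member was higher, 2 were lower, and 757 and 239 of 18972 features were so. DESeq2 called no member and 2 features. These members were Psmb11 (2.43, unadjusted p = 0.0287), Psmc4 (−1.07, 0.0338) and Psma6 (−1.04, 0.0455), each with adjusted p = 0.79. The median over the members was −0.52 against 0.02 over all features, and −0.55 against −0.47 among features of at least 10 CPM. The median turned to 0.07 with limma on log2 (TPM + 1), where that of all features was 0.53, and without FLAG IP replicate 2 the fit called 26 members lower and 1 higher, beside 22.2% and 8.3% of all features. The depletion of the 9 genes in the FLAG pull-down is therefore not shown to differ from that in the control pull-down.

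**Figure D5:**
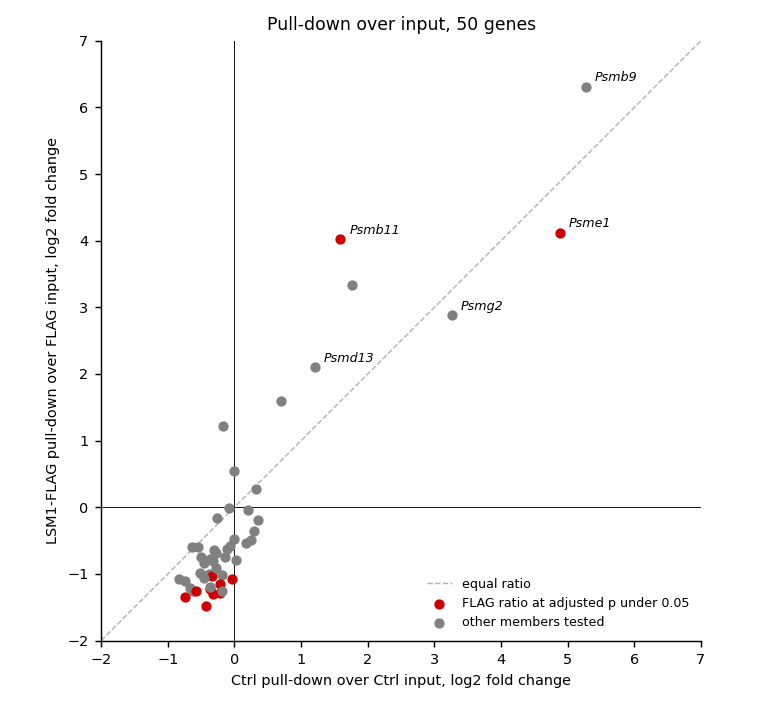
Log2 fold change of the FLAG pull-down over its input (vertical) against that of the control pull-down over its input (horizontal) for the 50 members tested, with the line of equal ratios. Most members lie under the line with both values below 0. Psmb9, Psmb11, Psme1, Psmg2 and Psmd13 have high ratios and were all near 0 in the inputs. Psmb9, Psme1 and Psmg2 entered the fit only through the pull-downs, so their ratios are no independent sign of a difference.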

How the data were processed

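Reads were trimmed by the authors (Cutadapt 2.3 by the study's methods, whereas the submitters' processing notes name Trimmomatic), checked with FastQC 0.11.8 and quantified with Salmon 0.8.2 on mm10 RefSeq transcripts and repeats. They deposited an estimated count and a TPM for each of 37713 features in each of 12 libraries. Here, estimated counts were summed by gene symbol (RefSeq genes of GRCm38.p6; 37072 transcripts matched, 294 did not) and rounded. TPM deposited by the authors were summed by gene for levels only. The main test was edgeR 4.0.16 (glmQLFit, glmQLFTest, TMM factors, filterByExpr, two-sided), with Benjamini-Hochberg adjustment over all features tested and calls at an adjusted p under 0.05; CPM are normalised by the TMM factors, and SE is the log2 fold change over the square root of F. Lsm1 KD and Ctrl were fitted alone, as were the inputs; the 8 RIP-seq libraries shared 1 fit for the pull-downs. Alternatives were DESeq2 1.42.0, RLE factors, no filter, limma 3.58.1 on log2 (TPM + 1), a length trend as offset, a replicate block and leaving out each library. By the study's methods an input was a part of the lysate of its pull-down, so same-numbered libraries of an arm were taken as pairs in the block (correlation of deviations 0.115 in FLAG and 0.058 in Ctrl). The code was tested on simulated data. Values are given for each library for members called in any comparison and for the highest and lowest member of each role by TPM in Ctrl. Members outside this rule are named in addition, chosen after their values were seen. The members, role lists and pathway list were chosen with earlier results of these data known. A gene of the pathway list is not reported here. Matching pseudogenes (6) had no transcript in the files, so reads from such copies could be counted for their parent genes. Sequence matches used GENCODE transcripts of GRCm38 and RefSeq promoters.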

Additional observations from a re-analysis of the deposited data

How the results depend on the processing

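No named gene changed direction under the alternatives run for it, and with 2 libraries a group most counts of calls depended on the setting. In the knockdown, the members higher and lower were 4 and 5 with DESeq2, 1 and 5 with no filter, 1 and 5 with limma on log2 (TPM + 1), 1 and 4 with the length trend, and 0 to 1 and 0 to 4 with 1 library left out; all features called were 1957 with no filter and 663 to 1258 with 1 library left out. The share of calls that were higher was 58.6%, against 33.3% with limma, which moved the median of all genes to −0.23, and 51.3% with the length trend, which moved the members' median to −0.22. Replicate numbers were not shown to pair the libraries in the knockdown (correlation of deviations −0.112 between Lsm1 KD and Ctrl); with the replicate block 0 members were higher and 1 lower (643 features), where Psme3, Psme4 and Psmd5 were not called (adjusted p = 0.0921, 0.0921 and 0.0703) and the 1 lower member was Psma1 (0.045), and with the crossed replicate block, added after seeing the data, 5 and 7 (2616 features). In the inputs, 19 features were called with DESeq2, 2 with no filter, 134 with limma, 0 with all 8 RIP-seq libraries in 1 fit and 2 to 1831 with 1 library left out, where 0 to 6 members were lower. In FLAG IP over FLAG input, members higher and lower were 5 and 16 with DESeq2 (7610 features), 4 and 12 with no filter, 0 and 17 with limma (2820 features), 2 and 27 with the length trend (7539 features), 3 and 11 with the replicate block, and 0 to 7 and 0 to 30 with 1 library left out (477 to 13390 features). In Ctrl IP over Ctrl input, they were 1 and 0 with DESeq2 (1349 features), 2 and 0 with no filter (1614 features), 0 and 1 with limma (156 features), 0 and 0 with the length trend (229 features), 2 and 0 with the replicate block (1454 features), and 0 to 2 and 0 to 8 with 1 library left out (111 to 2900 features). In the interaction, features called were 2 with DESeq2, 21 with no filter, 1 with the length trend, 10 with the replicate block and 0 to 6351 with 1 library left out, with 0 to 1 members higher and 0 to 26 lower. The cause of these moves was not tested. The low members, such as Psmb5, Psmb11 and Psme1, are limited by depth.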
